A study of Mus musculus with 2 samples.

Results

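Epithelial-mesenchymal transition (EMT) was examined through 10 genes out of the 22620 listed in both libraries: Epcam, Cdh1, Cdh2, Vim, Fn1, Snai1, Snai2, Twist1, Zeb1 and Zeb2. The genes were taken by symbol from a fixed list, all 10 were found, and the rule used no measured value. Their transcripts were counted in cancer cells of primary tumours (PT) and of paired lymph nodes (LN), with fibroblasts and endothelial cells of the same libraries as mesenchymal and vascular references. Both tissues came from 6 C57BL/6J mice bearing tumours of EO771-HEVM3. The parental EO771 line derives from a mammary tumour of this strain. Its HEVM3 derivative was enriched in mice for cells that spread through high endothelial venules (HEVs), the vessels by which lymphocytes enter lymph nodes. Each tissue was pooled into 1 droplet library of 3′ transcript ends, and cells cannot be assigned to mice. Tumours were dissociated with collagenases I and III and hyaluronidase, and lymph nodes with collagenase P, dispase and DNase, so tissue and digestion cannot be told apart. Each group is 1 library, so differences are given without a test or a replicate check. Intervals are exact 95% intervals and cover counting error only.

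In an EMT, epithelial cells lose the contacts that hold them in a sheet and take on features of migratory mesenchymal cells. Transcription factors of the SNAIL, ZEB and TWIST families drive the programme, and the SNAIL and ZEB factors repress epithelial adhesion genes through short E-box sequences in their promoters. Carcinoma cells often stop part of the way and keep epithelial and mesenchymal products together, which is described as a partial or hybrid state. Lymphocytes, macrophages, fibroblasts and endothelial cells also use several of these genes for functions of their own.

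The libraries retained 8719 PT cells and 9689 LN cells, with medians of 9361 and 2324 unique molecular identifiers (UMIs, each standing for 1 captured transcript). Clusters that expressed keratins gave 6099 PT and 607 LN cancer cells, with medians of 14055 and 35073 UMIs per cell. The references were 88 PT fibroblasts, 46 PT endothelial cells and 195 LN endothelial cells, 193 of them in a cluster led by the HEV genes Glycam1 and Fut7. The LN held 4 fibroblasts, too few for a value. In both cancer populations 6 of 9 fixed cancer markers were well expressed, while Wfdc2 and Spint1 lay between 0.0827 and 2.80 counts per 1000000 UMIs (CPM). The 8 fibroblast markers summed to 1042 CPM in PT and 1124 CPM in LN cancer cells, of which Dcn, a proteoglycan of connective tissue, made up 1033 and 1116 CPM. Col1a1 was at 4.52 and 0.0982 CPM, and Col1a2, Col3a1, Lum and Dpt had 0 UMIs in LN cancer cells, whereas Pdgfra (0.0517 and 1.62 CPM) and Mfap5 (2.66 and 6.58 CPM) were higher in LN. The 9 cancer markers summed to 453 CPM in PT fibroblasts, 431 CPM in PT endothelial cells, 157 CPM in LN endothelial cells and 380 CPM in PT T cells, against 4561 CPM in PT cancer cells. The libraries shared 47 cell barcodes, 2 of them in cancer cells of both.

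Promoter windows of 5 members (Epcam, Vim, Snai1, Twist1 and Zeb2) were taken from RefSeq (GRCm38.p6). No window of the other 5 members was used. The 250 bases before each annotated start site were searched for the E-box CACCTG and its reverse complement CAGGTG, the form to which SNAIL and ZEB factors bind. Epcam held 2 matches and Snai1 held 1, while the windows of Vim, Twist1 and Zeb2 held 0. Over 32851 promoter windows in the table, 17.2% held at least 1 match and 2.06% held at least 2. The matches are shown because Epcam and Snai1 were both measurable in the cancer cells below, each as 30 bases of the plus strand with the E-box in capitals, and a match does not show that a factor binds there.
Epcam, 187 bases before the start site, chr17:87635780-87635809: gccagtagggccCACCTGctggaggaccgg
Epcam, 19 bases before the start site, chr17:87635948-87635977: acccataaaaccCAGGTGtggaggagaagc
Snai1, 126 bases before the start site, chr2:167538057-167538086: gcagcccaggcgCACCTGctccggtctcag

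Of the epithelial members, Epcam was expressed in the cancer cells and Cdh1 was nearly absent. Epcam (chr17:87635979-87651129, plus strand, GRCm38 with GENCODE M21, as for all members) encodes an epithelial cell adhesion protein. It stood at 93.5 CPM (91.6 to 95.5, 9050 UMIs) in PT and 54.7 CPM (51.6 to 58.0, 1114 UMIs) in LN cancer cells. These were the highest of the 18 combinations of cell class and library with at least 20 cells, and their intervals did not overlap. PT fibroblasts had 4.40 CPM (2 UMIs), PT endothelial cells 6.38 CPM (2 UMIs) and LN endothelial cells 1.04 CPM (4 UMIs), and PT T cells, taken as background, had 5.71 CPM (7 UMIs). LN B cells came next at 25.8 CPM (292 UMIs) and overlapped LN plasmacytoid dendritic cells (17.5 CPM, 5 UMIs). In LN B cells Krt8 was at 21.0 CPM and the 9 cancer markers summed to 118 CPM, whereas LN cancer cells had 1048 CPM of Krt8. The part of RNA from cancer cells in the Epcam of B cells was not tested.

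Cdh1 (chr8:106603351-106670246, plus strand) encodes E-cadherin, the adhesion protein of epithelial junctions whose loss is the classical sign of EMT. Only 26 UMIs were found among the 96785153 of PT cancer cells, or 0.269 CPM (0.175 to 0.394), and 4 UMIs among the 20357525 of LN cancer cells, or 0.196 CPM (0.0535 to 0.503). The UMIs came from 25 of 6099 and 3 of 607 cells. Fibroblasts, pericytes and endothelial cells of the PT had 0 UMIs, which at their depth allows up to 6.60, 5.35 and 9.57 CPM. The highest level was in LN plasmacytoid dendritic cells, at 63.1 CPM (18 UMIs from 57 cells), followed by PT NK cells (32.4 CPM, 3 UMIs), PT T cells (13.1 CPM, 16 UMIs) and PT macrophages (10.6 CPM, 42 UMIs), and neighbours in this order overlapped. Cancer cells therefore ranked below several immune classes for Cdh1, and the interval of PT cancer cells overlapped that of LN endothelial cells (0.260 CPM, 1 UMI).

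Of the mesenchymal structural members Vim and Fn1 were found in most cancer cells as counted, without thinning. Cdh2 was found in 14.7% of PT and 26.7% of LN cancer cells. Vim (chr2:13573927-13582826, plus strand) encodes vimentin, the intermediate filament protein of mesenchymal cells. It reached 1060.3 CPM (1054 to 1067) in PT and 1210.4 CPM (1195 to 1226) in LN cancer cells, with a median of 13 UMIs per PT cell (quartiles 7 and 22) and 35 per LN cell (25 and 50). Only 136 PT cancer cells (2.23%) and 7 LN cancer cells (1.15%) had no Vim UMI. Stromal classes were higher still, at 4969 CPM in PT pericytes, 4483 CPM in PT endothelial cells, 3066 CPM in PT fibroblasts and 2615 CPM in LN endothelial cells, with no overlap between neighbours. Macrophages and LN dendritic cells, between 1852 and 2322 CPM, were also above the cancer cells. T cells and LN B cells were below the cancer cells, between 189 and 621 CPM.

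Fn1 (chr1:71585520-71653200, minus strand) encodes fibronectin, a matrix protein that mesenchymal cells secrete and bind through integrins. It was at 650.5 CPM (645 to 656) in PT cancer cells and 547 CPM (537 to 557) in LN cancer cells, with medians of 8 and 17 UMIs per cell. PT fibroblasts had 5158 CPM and PT pericytes 3111 CPM. PT endothelial cells (731 CPM, 639 to 832) overlapped PT cancer cells, and PT macrophages were just below (618 CPM), whereas LN endothelial cells had 55.6 CPM (48.4 to 63.6). T cells had 43.3 CPM in the PT and 7.32 CPM in the LN. Among the PT endothelial cells 1 cell held 44 of 229 Fn1 UMIs.

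Cdh2 (chr18:16588877-16809246, minus strand) encodes N-cadherin, which mesenchymal and neural cells use in place of E-cadherin. It was low and alike in the cancer cells of both sites, at 11.3 CPM (10.6 to 11.98, 1093 UMIs) in PT and 10.2 CPM (8.83 to 11.7, 207 UMIs) in LN. No UMI was found in PT T cells (a limit of 2.45 CPM), and LN T cells had 0.157 CPM (2 UMIs). PT pericytes (37.5 CPM, 21 UMIs), LN dendritic cells (33.6 CPM, 40 UMIs) and LN endothelial cells (18.5 CPM, 71 UMIs) were above the cancer cells, and PT fibroblasts (10.997 CPM, 5 UMIs) overlapped them. In LN B cells 1 cell held 5 of the 6 UMIs.

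Of Snai1, Snai2 and Twist1 only Snai1 was measurable in cancer cells. Snai1 (chr2:167538195-167542814, plus strand) encodes SNAIL, a zinc finger repressor of Cdh1. Its level was 9.76 CPM (9.15 to 10.4, 945 UMIs) in PT and 7.81 CPM (6.64 to 9.12, 159 UMIs) in LN cancer cells, against 1.63 and 0.866 CPM in T cells of the same libraries. PT endothelial cells (76.6 CPM, 24 UMIs), PT fibroblasts (52.8 CPM, 24 UMIs) and PT pericytes (33.9 CPM, 19 UMIs) were higher, with overlapping intervals. LN endothelial cells, at 10.9 CPM (42 UMIs), overlapped PT cancer cells.

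Snai2 (chr16:14705852-14709385, plus strand) encodes SLUG, the closest relative of SNAIL, and Twist1 (chr12:33957671-33959829, plus strand) a helix-loop-helix factor of mesodermal cells. Snai2 had 1 UMI in the cancer cells of each site, or 0.0103 CPM (0.000262 to 0.0576) in PT and 0.0491 CPM (0.00124 to 0.274) in LN. Twist1 had 6 UMIs in PT cancer cells, or 0.0620 CPM (0.0227 to 0.135), and 0 UMIs in LN cancer cells, which allows up to 0.147 CPM. Both genes were counted in PT stromal classes despite far fewer cells. Snai2 was also counted in LN endothelial cells, whereas Twist1 had 0 UMIs there, which allows up to 0.780 CPM. Snai2 was at 33.9 CPM (19 UMIs) in PT pericytes, 25.2 CPM (97 UMIs) in LN endothelial cells and 24.2 CPM (11 UMIs) in PT fibroblasts. Twist1 was at 121 CPM (91.1 to 157, 55 UMIs) in PT fibroblasts and 69.6 CPM (39 UMIs) in PT pericytes.

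Zeb1 (chr18:5591860-5775467, plus strand) and Zeb2 (chr2:44983632-45117395, minus strand) encode zinc finger repressors of epithelial genes that lymphocytes and macrophages also need. Zeb1 was at 18.2 CPM (17.3 to 19.0, 1758 UMIs) in PT and 16.2 CPM (14.5 to 18.0, 329 UMIs) in LN cancer cells. Most other classes were higher, led by LN T cells (402 CPM) and PT endothelial cells (214 CPM), and PT macrophages were lower (4.30 CPM). Zeb2 was at 11.95 CPM (11.3 to 12.7, 1157 UMIs) in PT and 8.45 CPM (7.23 to 9.81, 172 UMIs) in LN cancer cells, against 1224 CPM in PT neutrophils, 949 CPM in PT macrophages and 749 CPM in LN macrophages. LN T cells had 8.42 CPM of Zeb2, the lowest of the LN classes with at least 20 cells, and overlapped LN cancer cells, so a level above background was not detectable there. The 7 T cell markers summed to 26.8 CPM in PT and 81.5 CPM in LN cancer cells, and the 7 macrophage markers to 67.3 and 167 CPM. The part of RNA from these cells in the Zeb1 and Zeb2 of either site was not tested. Without the cancer cells that held a UMI of Ptprc, Col1a1, Col3a1 or Pecam1, which left 5589 PT and 463 LN cells, Zeb1 was at 17.9 and 12.1 CPM and Zeb2 at 11.7 and 8.02 CPM.

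**Figure D1:**
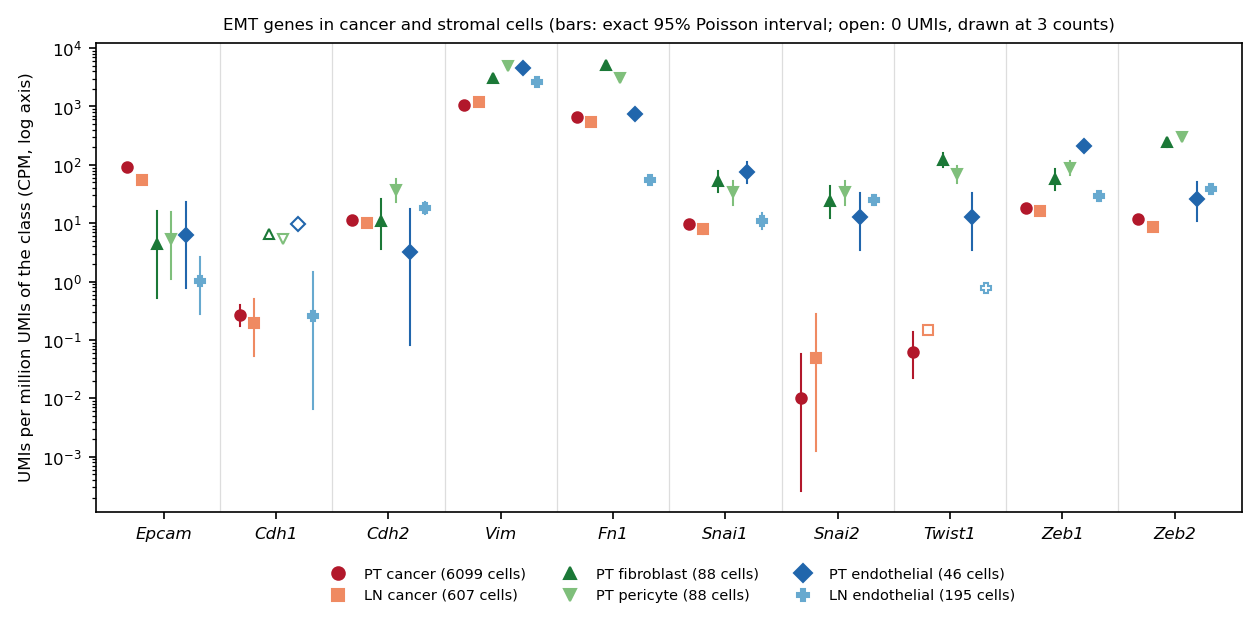
Level of each EMT gene (CPM of summed UMIs, log axis) in cancer, fibroblast, pericyte and endothelial cells of the PT and LN libraries. Vertical bars are exact 95% Poisson intervals and open symbols mark 0 UMIs, drawn at 3 counts. Epcam was highest in the 2 cancer populations (93.5 and 54.7 CPM), and Snai2 and Twist1 were counted mainly in stromal classes.

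Because depth differed between the sites, every cell was thinned to 1000 UMIs before cells with a UMI of a gene were counted. This left out 82 PT and 3 LN cancer cells. Vim was then detected in 62.2% of PT (61.0 to 63.4) and 65.6% of LN cancer cells (61.7 to 69.4), and Fn1 in 44.2% (42.9 to 45.4) and 41.0% (37.0 to 45.0). Epcam was detected in 9.30% (8.58 to 10.1) and 5.73% (4.02 to 7.89), against 0.743% of PT T cells and 1.91% of LN B cells. The shares of Vim, Fn1 and Epcam in cancer cells were thus above those of PT T cells, which were 37.2%, 4.27% and 0.743%. Zeb1 (1.73% and 1.67%), Zeb2 (1.29% and 0.875%), Snai1 (1.17% and 0.820%) and Cdh2 (1.10% and 1.02%) each had overlapping intervals between the sites. Without thinning Epcam was detected in 50.9% of PT and 58.6% of LN cancer cells, so the order of the sites turned with depth. The median T cell of the PT held 1559 UMIs and the median B cell of the LN 1819.

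The first comparison asked whether EMT genes differed between cancer cells of the lymph node and of the primary tumour. Genes with at least 100 UMIs in the cancer cells of either site were compared, and a difference of at least 2-fold was called. Of 10728 such genes 4.59% were at least 2-fold higher in LN and 9.41% at least 2-fold lower. Of the 10 EMT genes 7 were compared, 0 were called higher and 0 lower, and Cdh1, Snai2 and Twist1 had too few UMIs. The PT cancer cells held more UMIs in all, so this minimum admitted genes at a lower CPM in PT than in LN. The median log2 ratio of all compared genes was -0.18, so values near it stand for no shift against the other genes.

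Among the 7 members compared Epcam differed most, at a log2 ratio of -0.77 (-0.86 to -0.68), or 1.71-fold lower in LN. Vim was the only 1 of them with a positive ratio, at 0.19 (0.17 to 0.21), or 1.14-fold higher. The remaining ratios were -0.50 for Zeb2 (-0.74 to -0.27), -0.32 for Snai1 (-0.57 to -0.08), -0.25 for Fn1 (-0.28 to -0.22), -0.17 for Zeb1 (-0.34 to 0.00) and -0.15 for Cdh2 (-0.37 to 0.06). Less the median of all genes, Epcam was at -0.59, Zeb2 at -0.31 and Vim at 0.38, and Zeb1 and Cdh2 turned to 0.02 and 0.04. The Zeb1 ratio was not stable. Not centred, it was at -0.57 without the cancer cells that held a UMI of Ptprc, Col1a1, Col3a1 or Pecam1. For the 3 genes under the minimum the counts were 4 and 26 UMIs of Cdh1, 1 and 1 of Snai2 and 0 and 6 of Twist1 in LN and PT, and no difference was detectable at this depth.

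The Epcam ratio depended on which cancer cells were compared. In the only cluster with at least 50 cancer cells of each library (1322 PT and 61 LN cells) Epcam was at 194 CPM in PT and 187 CPM in LN, a log2 ratio of -0.05. Zeb1 turned to 0.46 and Zeb2 to 0.01 in this cluster, on 30 and 15 UMIs in LN. Without the PT clusters led by mitotic genes or with a median under 2000 UMIs, the Epcam ratio was -1.20, which is past the 2-fold limit. Vim turned to -0.09 there, so its direction rested on the mitotic and shallow cells. Both alternatives were chosen after seeing the data. The limit of 6000 detected genes, taken from the study, bore on the deep LN cells. Without it the comparison held 1308 LN and 6662 PT cells, with log2 ratios of -0.88 for Epcam, 0.18 for Vim and -0.07 for Snai1.

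**Figure D2:**
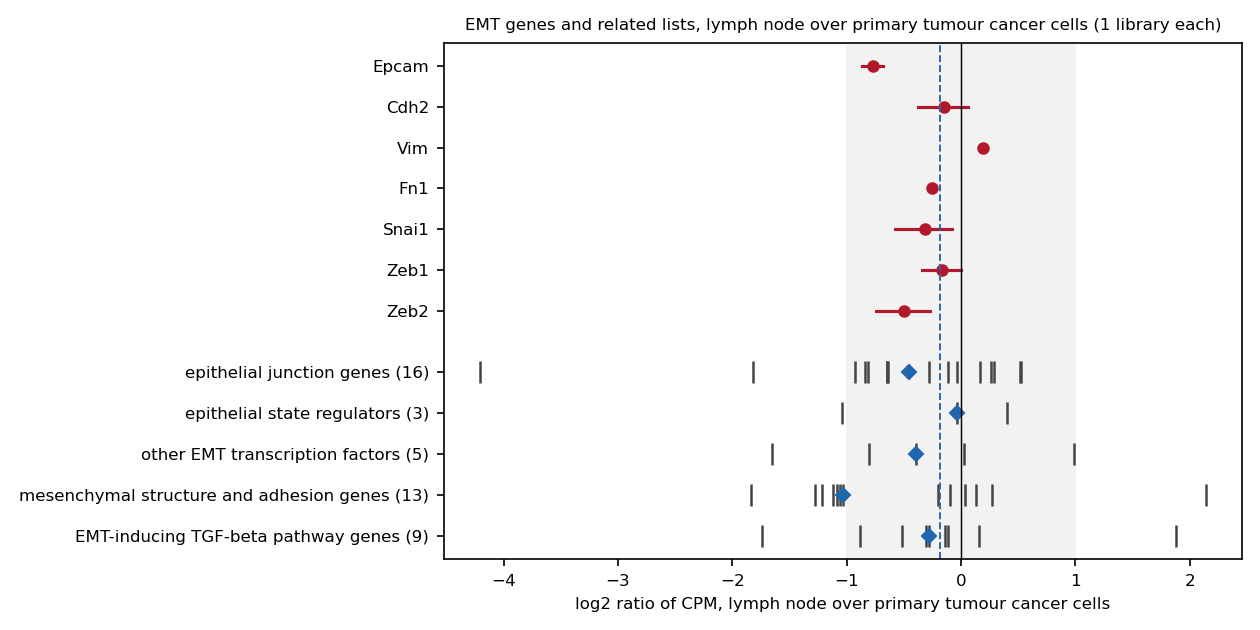
Log2 ratio of CPM in LN over PT cancer cells. Red points with bars are the 7 EMT genes compared and their exact 95% intervals, black ticks are the compared genes of each related list with the list median as a blue diamond, the dashed line is the median of all genes (-0.18), and the grey band holds differences under 2-fold. All 7 EMT genes lie within the band, with Epcam lowest at -0.77.

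PT fibroblasts were the mesenchymal reference. They did not include 35 PT cells of a cluster led by Acta2 and Tagln, which was left unnamed. Among 11170 genes with at least 10 UMIs in fibroblasts or 100 in PT cancer cells, 19.8% were at least 2-fold higher and 21.4% at least 2-fold lower in fibroblasts. Of the 9 EMT genes compared 7 were higher, 1 (Epcam) was lower and 1 (Cdh2) was neither. Twist1 (log2 ratio 10.83, 9.72 to 12.44) and Snai2 (10.67, 8.41 to 16.62, on 11 UMIs against 1) entered the comparison only through fibroblasts, so their direction was set by the UMI minimum. Among the 7 members that passed in cancer cells 5 were higher in fibroblasts. Zeb2 was at 4.36 (4.06 to 4.63), Fn1 at 2.99 (2.93 to 3.05), Snai1 at 2.46 (1.79 to 3.02), Zeb1 at 1.68 (1.04 to 2.21) and Vim at 1.53 (1.45 to 1.61). Cancer cells of the PT thus held less of every mesenchymal member but Cdh2 than fibroblasts did, by 2.89-fold for Vim and 7.93-fold for Fn1. The Fn1 log2 ratio fell to 2.09 where each library was clustered on its own, a setting that gave 140 fibroblasts. Epcam was 17.0-fold higher in cancer cells (log2 ratio -4.09, -7.46 to -2.56, 2 UMIs in fibroblasts). Cdh2 was at a log2 ratio of 0.10 (-1.66 to 1.19), and reached 1.93 where no gene was withheld from clustering, a setting that gave 122 fibroblasts.

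Endothelial cells were compared with cancer cells of their own library. In the PT 21.6% of 11013 genes were at least 2-fold higher and 18.6% at least 2-fold lower in endothelial cells. Zeb1 (log2 ratio 3.57, 3.18 to 3.91), Snai1 (3.0004, 2.32 to 3.55), Vim (2.08, 2.00 to 2.16) and Zeb2 (1.18, -0.12 to 2.08) were called higher, and Epcam (-3.55, -6.92 to -2.02) and Cdh2 (-1.24, -7.13 to 0.66, on 1 UMI) lower, of 7 members compared. The intervals of Zeb2 and Cdh2 held 0. Zeb2 rested on 8 UMIs and was at 0.65 without the cell that held most of them, 0.86 without endothelial cells with a UMI of Krt8, Krt18 or Ptprc, 0.85 where no gene was withheld from clustering and -0.41 with a mitochondrial limit of 10%. Fn1 was at 0.17 (-0.03 to 0.36), and at -0.62 in the 24 endothelial cells without such UMIs. The 6 pericyte markers summed to 1168 CPM in PT endothelial cells, against 6567 CPM of the 8 endothelial markers, and their part in these ratios was not tested.

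In the LN 23.1% of 10644 genes were at least 2-fold higher and 17.1% at least 2-fold lower in endothelial cells. Snai2 (log2 ratio 8.43, 6.49 to 14.32, 97 UMIs against 1) passed the minimum only through endothelial cells, where it is high. Of the other 7 members compared Zeb2 (log2 ratio 2.20, 1.87 to 2.52) and Vim (1.11, 1.08 to 1.14) were higher, and Epcam (-5.55, -7.60 to -4.36) and Fn1 (-3.29, -3.50 to -3.10) lower. Cdh2 (0.87), Zeb1 (0.84) and Snai1 (0.50) were under 2-fold. Fn1 in LN cancer cells was thus 9.81-fold above the endothelial cells of the same library, while in the PT endothelial and cancer cells overlapped. In the LN the Fn1 log2 ratio was -3.84 without cells holding markers of another class and -2.29 without the limit on detected genes. Vim was at 0.95 less the median of all genes and lost its call. PT and LN endothelial cells differed in their leading genes (Igfbp3, Cdh5 and Gpihbp1 against Glycam1, Fut7 and Hmga2) and in median depth (5716 and 16085 UMIs), and the part of either in these differences was not tested.

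**Figure D3:**
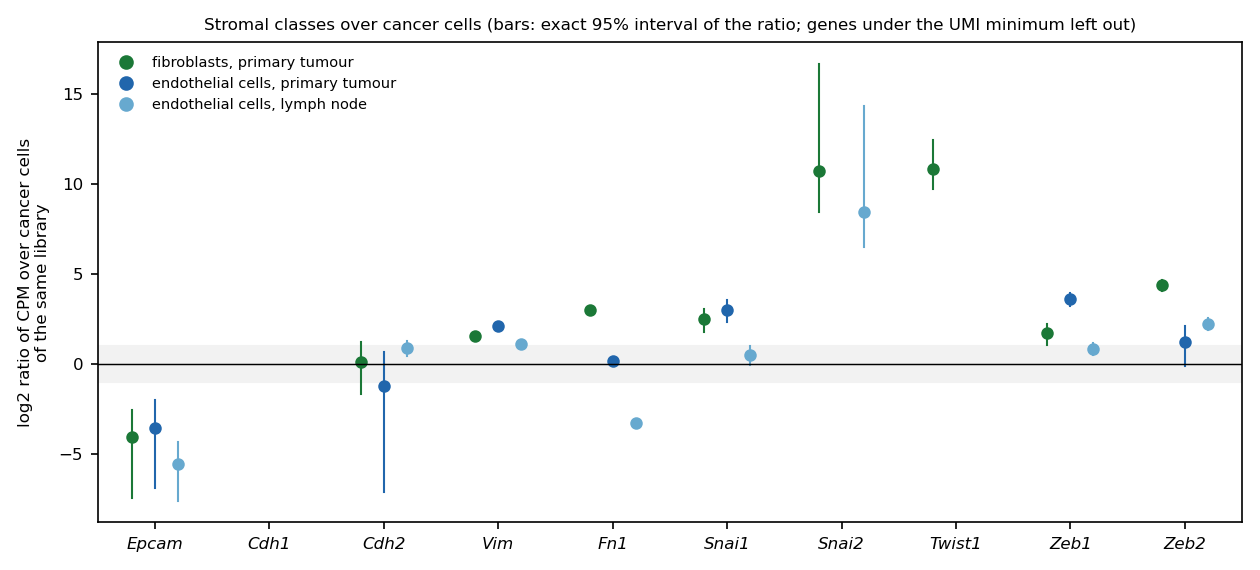
Log2 ratio of CPM in stromal classes over cancer cells of the same library, for members above the UMI minimum. Bars are exact 95% intervals, and the grey band holds differences under 2-fold. Epcam lies below the band in all 3 comparisons, and Snai2 and Twist1 lie at or above 8.43 where compared, having passed the UMI minimum only in the stromal class.

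Within the PT the cancer cells formed 6 clusters, made without the EMT genes and related lists. Clusters are named here by leading genes, and no test was made between them. Epcam ranged 5.79-fold, from 33.5 CPM in the cluster led by the mitotic genes Cenpf and Top2a (1495 cells) and 34.6 CPM in that led by Cyp1a1 and Sprr1a (307 cells) to 194 CPM in that led by the trefoil factor gene Tff1 and by Alb (1322 cells). The clusters led by Slurp1 and Mt4 (829 cells) and by Elf3 and Foxq1 (1952 cells) lay between, at 74.0 and 121 CPM. Vim ranged 2.74-fold, from 635 CPM in the mitotic to 1738 CPM in the Slurp1 cluster, and Fn1 3.29-fold, from 270 CPM in a shallow cluster of 194 cells (median 1614.5 UMIs) to 888 CPM in the Tff1 cluster.

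The other members did not share 1 pattern across these clusters. The Tff1 cluster was highest for Epcam and also for Fn1, Cdh2 (19.9 CPM) and Snai1 (15.3 CPM). Its Snai1 interval (13.7 to 17.1) overlapped those of the Slurp1 and Elf3 clusters. The mitotic cluster was low for Epcam, Vim and Snai1 (4.19 CPM) and highest for Zeb1 (22.7 CPM) and Zeb2 (14.1 CPM). Its Zeb2 interval (12.9 to 15.4) overlapped those of the Cyp1a1 and the shallow cluster. Zeb1 lay between 15.5 and 17.0 CPM and Zeb2 between 10.3 and 12.3 CPM in the other deeper clusters, whose intervals overlapped. Snai1 and Epcam were lowest in the same pair of deeper clusters, the mitotic and the Cyp1a1 cluster, where Snai1 was at 4.19 and 3.28 CPM against 12.9 to 15.3 CPM in the Elf3, Slurp1 and Tff1 clusters. Cdh1 did not exceed 0.484 CPM in any PT cluster but the shallow one, where 1 UMI gave 2.14 CPM.

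In the LN 510 of 607 cancer cells formed a cluster of their own, led by Tff2 and Krt19, with Epcam at 37.7 CPM (35.0 to 40.7), Vim at 1209 CPM, Fn1 at 545 CPM and Snai1 at 7.78 CPM. The 61 LN cells of the Tff1 cluster had 187 CPM of Epcam (165 to 211), 1386 CPM of Vim, 670 CPM of Fn1 and 17.2 CPM of Cdh2. Between these groups of LN cells Epcam differed more than Vim. Krt8, a keratin of simple epithelia, was at 961 CPM in the LN cluster and 2001 CPM in the LN cells of the Tff1 cluster.

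**Figure D4:**
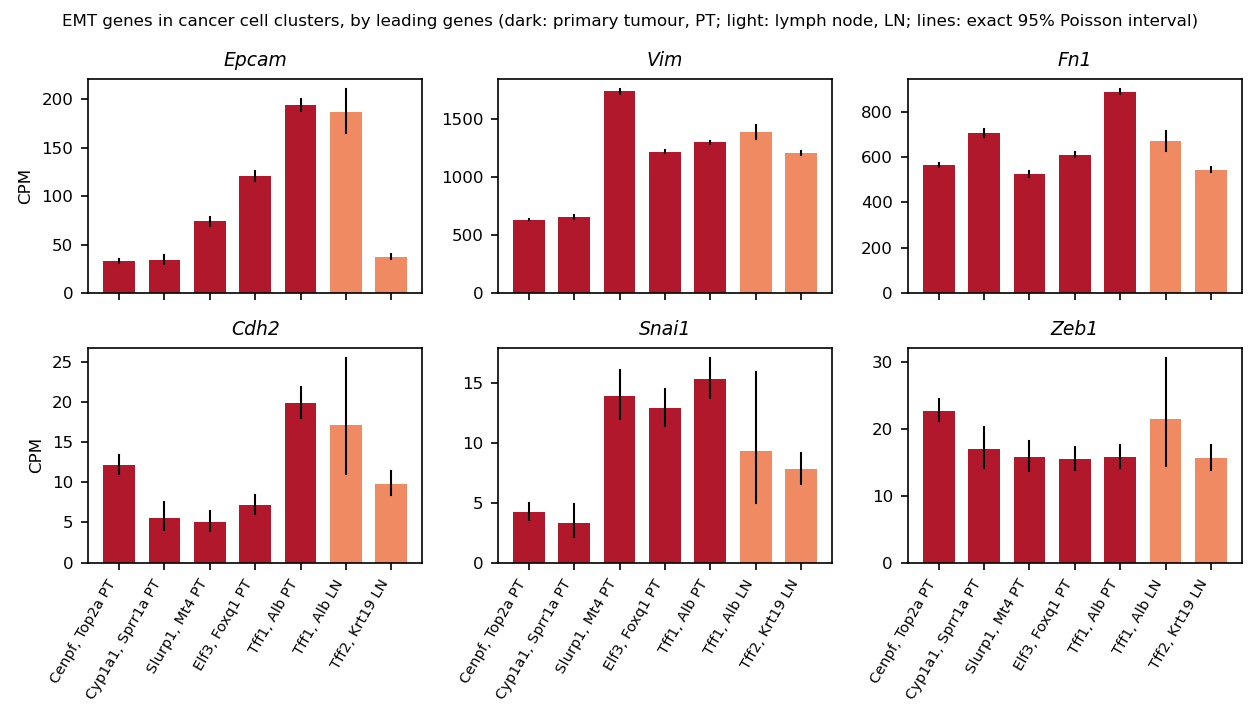
Level (CPM) of 6 EMT genes in cancer cell clusters, labelled by leading genes, for the PT (dark) and LN (light). Lines are exact 95% Poisson intervals, and the shallow PT cluster of 194 cells is left out. Epcam is highest in the Tff1 cluster of both libraries (194 and 187 CPM), which also holds the highest Fn1 and Cdh2 of the PT.

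Epithelial and mesenchymal transcripts were found in the same cells. As counted, 3082 PT cancer cells (50.5%) held UMIs of both Epcam and Vim, and 2991 (49.0%) held Epcam, Vim and Fn1. In the LN these were 352 (58.0%) and 350 (57.7%) of 607 cells, whereas 2 of 88 PT fibroblasts (2.27%) held Epcam and Vim. These shares follow depth, and at 1000 UMIs per cell Epcam and Vim were found together in 6.06% of PT cancer cells (5.47 to 6.69), 3.56% of LN cancer cells (2.23 to 5.36) and 0.0792% of PT fibroblasts, so the order of the sites turned. At 1000 UMIs per cell Vim was detected in 65.1% of PT cancer cells with Epcam (61.0 to 69.1) and in 61.9% of those without (60.6 to 63.2), and Fn1 in 50.9% (46.7 to 55.2) and 43.5% (42.2 to 44.8). Detection of Epcam thus did not go with less Vim or Fn1 in the PT. In the LN the shares were 62.1% (44.0 to 78.0) and 65.9% (61.8 to 69.7) for Vim and 38.90% and 41.1% for Fn1, and a difference was not detectable with an expected 34.6 cells with Epcam. Krt8 behaved alike in the PT, where Vim was detected in 64.5% of cells with Krt8 and 53.9% of cells without it. At 3000 UMIs per cell Vim was found in 92.5% of PT cancer cells with Epcam and 90.4% without. These shares mix clusters that differ in both genes.

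Related genes were described in 5 lists of 73 genes. Of 18 epithelial junction genes 16 were compared between LN and PT cancer cells, 2 were at least 2-fold lower in LN and 0 higher, near the shares over all genes (9.41% and 4.59%), and the median log2 ratio was -0.46 against -0.18 for all genes. The 2 were Cldn4, a claudin of tight junctions, which had 3.49 CPM in LN and 64.8 CPM in PT (log2 ratio -4.21, -4.57 to -3.88), and Marveld2, which encodes tricellulin (3.14 and 11.2 CPM, -1.82). Both passed the minimum only in PT, where they are higher, with 71 and 64 UMIs in LN. Cldn7, another claudin gene, was under the minimum with 17 UMIs in LN and 2 in PT (log2 ratio 5.06, 3.26 to 8.49). Other junction genes were retained in both, among them Cldn3 (262 CPM in LN and 183 CPM in PT), the desmosomal Dsp (142 and 153 CPM) and Ctnna1 (272 and 243 CPM). Cldn7 and these 3, like the others not in the rule for named genes, were chosen after their values were seen. Both cancer populations thus carried desmosomal and tight junction transcripts with almost no Cdh1.

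Of 10 epithelial state regulators 3 were compared. Elf3, an epithelial ETS factor, was lower in LN (118 and 242 CPM, log2 ratio -1.04, or -0.85 less the median of all genes), while Ehf (71.1 and 53.7 CPM) and Esrp2 (7.07 and 7.27 CPM) were under 2-fold. The splicing factor gene Esrp1 had 0.147 CPM in LN and 0 UMIs in PT, and Grhl1, Grhl2, Grhl3, Ovol1, Ovol2 and Elf5 were at or below 1.08 CPM in both. Of 12 other EMT transcription factors 5 were compared. Sox9 was lower in LN (93.97 and 296 CPM, -1.65), and 0 were called higher. Prrx2 was under the minimum, with 31 UMIs in LN and 21 in PT (2.80, 1.97 to 3.68). Twist2, the relative of Twist1, was counted in cancer cells, at 18.5 CPM in LN and 9.30 CPM in PT (0.99, and 1.18 less the median of all genes, which is past the 2-fold limit), as was Tcf4 (289 and 284 CPM). Prrx1, Foxc1, Foxc2 and Foxf1 were at or below 0.155 CPM in the cancer cells of both sites. PT fibroblasts had 341 CPM of Prrx1, 44.0 CPM of Foxc1, 8.80 CPM of Foxc2 (4 UMIs) and 4.40 CPM of Foxf1 (2 UMIs). Prrx1 and Foxc1 passed the minimum of the fibroblast comparison only in fibroblasts, which set their direction, and Foxc2 and Foxf1 did not pass it.

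The list with most called genes was that of mesenchymal structure and adhesion. Of its 21 genes 13 were compared, 7 were at least 2-fold lower in LN (9.41% over all genes), 1 was higher (4.59% over all genes) and the median log2 ratio was -1.03. Acta2, smooth muscle actin, was at 0.737 CPM in LN and 2.71 CPM in PT (-1.83), and Thbs1, a matricellular thrombospondin, at 140 and 337 CPM (-1.27). Acta2 passed the minimum only in PT, where it is higher (15 UMIs in LN and 262 in PT). Itga5, Cd44, Mmp14 and Axl were also at least 2-fold lower, but lay between -0.93 and -0.85 less the median of all genes, under the 2-fold limit. S100a4, a calcium-binding protein of motile cells, was higher in LN (65.5 and 14.9 CPM, 2.14, 2.03 to 2.25). Of these 21 genes 8 passed the minimum of the fibroblast comparison only in fibroblasts, Lox and Postn among them, which set their direction. Of the 13 that passed in PT cancer cells 10 were at least 2-fold higher in fibroblasts and 0 lower (19.8% and 21.4% over all genes), with a median log2 ratio of 2.28. Cancer cells of the PT had 0.155 CPM of Lox and 0.289 CPM of Postn, against 862 and 1533 CPM in fibroblasts. Cd44 (557 CPM in cancer cells and 726 CPM in fibroblasts), Itgav (131 and 147 CPM) and Tpm1 (285 and 550 CPM) were the 3 under 2-fold.

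Of 12 genes of the EMT-inducing TGF-beta pathway 9 were compared between the sites, 1 was higher and 1 lower, near the shares over all genes (4.59% and 9.41%). Inhba, a subunit of activin, had 4.13 CPM in LN and 1.13 CPM in PT cancer cells (log2 ratio 1.88, on 84 and 109 UMIs), and Tgfbi, a secreted matrix protein, 0.344 and 1.23 CPM (-1.74, on 7 and 119 UMIs). Both passed the minimum only in PT, where Tgfbi is higher and Inhba lower. The ligand gene Tgfb1 (63.0 and 69.5 CPM), the receptor gene Tgfbr2 (44.1 and 39.5 CPM) and the inhibitor Smad7 (165 and 179 CPM) were expressed at both sites and differed by less than 2-fold. Of the 9 genes that passed the minimum in PT cancer cells 6 were higher in fibroblasts and 1 (Smad2) was lower (19.8% and 21.4% over all genes), while Tgfb2, Tgfb3 and Tgfbr3 passed only in fibroblasts. The endothelial comparisons are given for the list genes that passed the minimum in cancer cells. In PT endothelial cells, relative to PT cancer cells, 3 were higher and 9 lower of 16 junction genes, 0 and 2 of 3 regulators, 1 and 1 of 5 transcription factors, 6 and 3 of 13 mesenchymal genes and 5 and 0 of 9 pathway genes. In LN endothelial cells, relative to LN cancer cells, these counts were 0 and 11 of 14, 0 and 3 of 3, 0 and 3 of 5, 3 and 3 of 12 and 0 and 2 of 7. Of the junction genes lower in PT endothelial cells, Tjp3 (0 UMIs there), Dsc2 (0 UMIs) and Marveld2 (1 UMI) had intervals that held 0. Over all genes compared 21.6% were higher and 18.6% lower in the PT, and 23.1% and 17.1% in the LN.

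For the 6 members with at least 1000 UMIs in PT cancer cells, the most similar genes were sought among 12280 genes by Pearson's r of log2 levels (10 CPM added) over the 18 combinations of cell class and library. These points share 2 libraries and differ in depth, and r is given as a description. Epcam was most like the junction gene Crb3 (r = 0.87), Prxl2a (0.86) and Mtarc2 (0.86). Vim was most like Tubb6 (0.91), Soga1 (0.88) and Dusp23 (0.88), and Fn1 like Emp1 (0.94), Axl (0.92) and Pmp22 (0.92). Cdh2 was nearest to Slc29a2 (0.89), Pdia5 (0.87) and Arpin (0.85), Zeb1 to Ehd3 (0.86), Rnf125 (0.83) and Tnik (0.81), and Zeb2 to Soat1 (0.90), Slc15a3 (0.89) and Gpr35 (0.86).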

How the data were processed

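The files deposited by the authors give UMI counts for each gene in each cell, not normalised, made with Cell Ranger on GRCm38 (version 5.0.0 per the file headers, 2.1.1 in the submitters' processing notes). The study's limits on cells were applied, namely more than 200 and no more than 6000 detected genes, with mitochondrial UMIs up to 5%. Doublets were scored with Scrublet in scanpy 1.11.5. Its threshold removed 428 PT cells. It marked 3 LN cells, under the 0.5% taken as failure, so the 616 above the 94th percentile were removed. Both libraries were clustered together (Leiden, igraph 0.11.9, resolution 1, 30 components, 15 neighbours) with cell cycle scores regressed out and without integration, copy number or the EMT genes and lists among the variable genes. Clusters were named from a marker list by a scoring rule set after the data were seen, which left 424 PT and 21 LN cells unnamed. Sorted LN endothelial cells were also processed by the study, and whether this library holds them is not given in the sources used here. Levels are CPM of summed UMIs, not divided by gene length because 3′ ends were counted. Log2 ratios had 0.5 count added to each sum, with exact intervals conditional on the total of both sums. For 0 UMIs the upper limit was taken as 3 counts. Shares after thinning are expected values over all draws, with Clopper-Pearson intervals. Ratio and thinning formulas were tested on simulated data. The text names the 10 members, up to 3 called genes per list and direction, and the 3 most similar genes of each member. The members and lists were chosen with earlier results of these data known, and 3 of the alternatives after seeing the data. Some genes that these rules name are not reported here.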

Additional observations from a re-analysis of the deposited data

How the results depend on the processing

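Alternatives changed the doublet removal, mitochondrial and gene limits, clustering, variable genes, resolution, CPM averaging, centring, UMI minimum and the cells entering a class. Of 94 recomputed counts of called members, 92 stayed within 1.5 times the main value. Without the mitotic and shallow PT clusters, 1 member in place of 0 was lower in LN cancer cells (Epcam). Without a limit on detected genes, 1 in place of 2 was lower in PT endothelial cells (Cdh2 lost its call). Of 364 log2 ratios 69 left the main interval and 1 called ratio reversed, Zeb2 in PT endothelial over cancer cells at -0.41 with the 10% mitochondrial limit. The cause was not tested. Of 40 recomputed shares of cells with a UMI 30 moved and 10 did not, as these depend on the UMIs each cell is thinned to. Cdh2 was called higher in fibroblasts (1.21 to 1.93) under 6 alternatives, 5 of which gave 122 to 183 fibroblasts in place of 88 and 1 of which added pericytes. Snai2 was no longer compared in fibroblasts at a minimum of 20 UMIs or without cells holding markers of another class. In the LN endothelial comparison Zeb1 was called with single-cell means (1.14) and without cells holding markers of another class (1.23), Cdh2 without the gene limit (1.30), and Vim lost its call with single-cell means (1.00) and with centring (0.95). Epcam in LN over PT cancer cells ranged from -1.20 to -0.05. No paired analysis was possible because each group is 1 library. Few UMIs limit the LN over PT ratios of Cdh1, Snai2 and Twist1 in cancer cells, and the 46 PT endothelial cells limit every ratio that rests on them.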
